A study of Mus musculus with 12 samples.

Results

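Gene expression in the adipose stromal vascular fraction was compared between mice on a high-fat diet that carried a catalytically inactive Tert and mice on a standard diet that carried mCherry alone. The comparison takes 6 of the 12 RNA-seq libraries of the series, chosen by their sample titles, and covers all 16713 genes with enough counts to test. The 3 standard-diet libraries (SD mCherry, replicates 1, 2 and 3) have the genotype p21+/mcherry and the treatment Standard Diet (SD). The 3 high-fat libraries (HFD TertCi, replicates 30, 31 and 33) have the genotype p21+/mcherry-TertCi and the treatment High Fat Diet (HFD). Diet and genotype therefore differ together, and a diet difference and a TertCi difference cannot be told apart within this comparison. The 3 HFD mCherry libraries (p21+/mcherry, High Fat Diet (HFD), replicates 15, 17 and 20) are set beside it to show which of their differences from SD mCherry had a counterpart with TertCi. The series' design text calls the high-fat control p21+/-, whereas its labels name mCherry, and these were used. All these mice carry a knock-in at p21 (Cdkn1a), so that the p21 promoter drives the cassette in whichever cells use it, and no group has 2 wild-type p21 alleles. The labels give adipose tissue, stromal cells and primary cells, but no age, sex, depot or batch. Nothing says whether replicates are separate animals, so p-values measure only the spread between these samples, which may be technical.

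The stromal vascular fraction is what remains of adipose tissue once mature adipocytes are removed. It holds adipocyte progenitors, endothelial cells, pericytes, macrophages and other immune cells. A high-fat diet enlarges fat depots, and this expansion is accompanied by macrophage entry, matrix deposition and vessel growth. p21 is a cyclin-dependent kinase inhibitor induced by p53 and during senescence. TERT is the reverse transcriptase subunit of telomerase, and a catalytically inactive form cannot extend telomeres.

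The knock-in was read first. The added feature mCherry_Tert, whose sequence is not described, had 41, 86 and 57 counts in the HFD TertCi libraries and 0 in each SD mCherry library. Its level was 3.50 ± 1.81 CPM (counts scaled by library size, SD, n = 3), which is at least 20.1-fold higher than the 0.174 CPM that 3 counts would give in the SD mCherry library with the highest such limit. Tert was counted 187, 229 and 304 times in HFD TertCi and 78, 44 and 8 times in SD mCherry. The corresponding levels were 9.54, 14.7 and 15.2 CPM against 3.97, 2.13 and 0.463 CPM, without overlap, and the difference did not pass (log2 fold change 2.58 ± 0.645, SE, edgeR adjusted p = 0.243). Cdkn1a was at 222, 478 and 265 CPM in HFD TertCi and at 213, 261 and 150 CPM in SD mCherry, and these ranges overlapped.

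The 12 libraries held 16430330 to 19486965 counts. Transcripts of epididymis and vas deferens epithelium, which are not part of the stromal vascular fraction, were abundant in some libraries of every group. Crisp1, a secretory protein of the epididymis, was at 8860 and 14800 CPM in SD mCherry replicates 1 and 3 and at 0.242 CPM in replicate 2. In HFD TertCi it was at 9600 and 7810 CPM in replicates 30 and 33 and had no count in replicate 31. The summed level of the 25 list members ran from 3220 to 62100 CPM in SD mCherry and from 384 to 37400 CPM in HFD TertCi, with 10 members at 0 in SD mCherry replicate 2 and 7 in HFD TertCi replicate 31. Their part in the differences below was not tested gene by gene; counts with this level as a covariate, and without both low libraries, stand beside the main results. The defining markers of the labelled tissue were present: no member of the endothelial, progenitor, pericyte or macrophage identity lists was at 0 in any of the 6 libraries.

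No gene passed the test between HFD TertCi and SD mCherry. Among 16713 genes, edgeR's quasi-likelihood test called 0 (0%) at an adjusted p under 0.05, and the smallest adjusted p was 0.243. At an unadjusted p under 0.05, 1131 genes were higher (6.77%) and 1323 were lower (7.92%). All 3 HFD TertCi libraries lay above all 3 SD mCherry libraries for 1714 genes (10.3%) and below them for 1684 (10.1%). DESeq2 called 256 genes higher (1.51%) and 440 lower (2.59%), and edgeR with the epididymis level as a covariate, on all 12 libraries, called 204 higher (1.22%) and 20 lower (0.120%). With that covariate on only the 6 libraries compared it called 0. Without SD mCherry replicate 3, edgeR called 23 higher (0.135%) and 303 lower (1.77%). Without both libraries under 1 CPM of Crisp1 it called 0, with 537 genes at an unadjusted p under 0.05, of which 322 were higher (1.89%). At the same unadjusted p, 437 genes were higher without HFD TertCi replicate 31 (2.55%), and without SD mCherry replicate 3 there were 1259 higher (7.37%) and 2076 lower (12.1%). DESeq2 and the covariate fit shared 158 calls, 22.7% of the former and 70.5% of the latter. Only 16 genes were called by DESeq2, the covariate fit and the fit without SD mCherry replicate 3 alike, 2.3% of the DESeq2 calls. The same model called 8 genes between HFD mCherry and SD mCherry (0.0479%), with 2362 higher (14.1%) and 1671 lower (10%) at an unadjusted p under 0.05. With library sizes not scaled further, that split turned to 1605 higher and 2446 lower. Both comparisons use the same 3 SD mCherry libraries, so their values are given side by side and no overlap or correlation between them is reported.

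The leading genes in each direction were those of smallest p among genes whose SD mCherry and HFD TertCi libraries did not overlap, so their separation was fixed by that choice. Among those higher in HFD TertCi, Robo4, an endothelial guidance receptor, was at 55.0, 45.6 and 39.0 CPM in SD mCherry and 109, 253 and 171 CPM in HFD TertCi. Sox18, a transcription factor of endothelial cells, was at 14.7, 21.2 and 20.4 CPM against 41.2, 51.1 and 43.5 CPM. Pcdh12, a protocadherin of endothelial junctions, was at 9.47, 8.44 and 5.50 CPM against 21, 39.7 and 31.4 CPM. Arap3, a GTPase-activating protein needed in blood vessel development, was at 32.9, 30.3 and 21.4 CPM against 92.1, 227 and 113 CPM. HFD TertCi replicate 31 was the highest of the 6 libraries for each of these 4 genes. The log2 fold changes were 1.93 ± 0.378 (SE) for Robo4, 1.27 ± 0.254 for Sox18, 1.97 ± 0.380 for Pcdh12 and 2.35 ± 0.452 for Arap3.

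Sema7a, a membrane-bound semaphorin, was at 65.4, 69.1 and 68.1 CPM in SD mCherry and 208, 303 and 213 CPM in HFD TertCi (log2 fold change 1.84 ± 0.328, SE, edgeR adjusted p = 0.243). It was at 236, 341 and 257 CPM in HFD mCherry. Ripk3, a kinase of necroptosis, was at 18.7, 13.5 and 21.8 CPM in SD mCherry and 51.7, 65.3 and 54.0 CPM in HFD TertCi. Nod2, an intracellular sensor of bacterial peptidoglycan, was at 18.8, 13.1 and 15 CPM against 45.4, 98.0 and 66.1 CPM. Tgfb1, the ligand of the TGF-beta receptors, was at 47.8, 55.6 and 45.8 CPM against 126, 214 and 146 CPM. Adgrl2, an adhesion G protein-coupled receptor, was at 43.3, 46.5 and 54.4 CPM against 79.5, 112 and 123 CPM. Cabp1, a calcium-binding protein, was at 0.463 to 1.27 CPM against 3.32 to 6.70 CPM. Sh2d5, an SH2-domain adaptor, is described with the diet genes below. Of the 11 genes other than mCherry_Tert, DESeq2 and the covariate fit called 11 each, and edgeR without SD mCherry replicate 3 called 2.

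**Figure D1:**
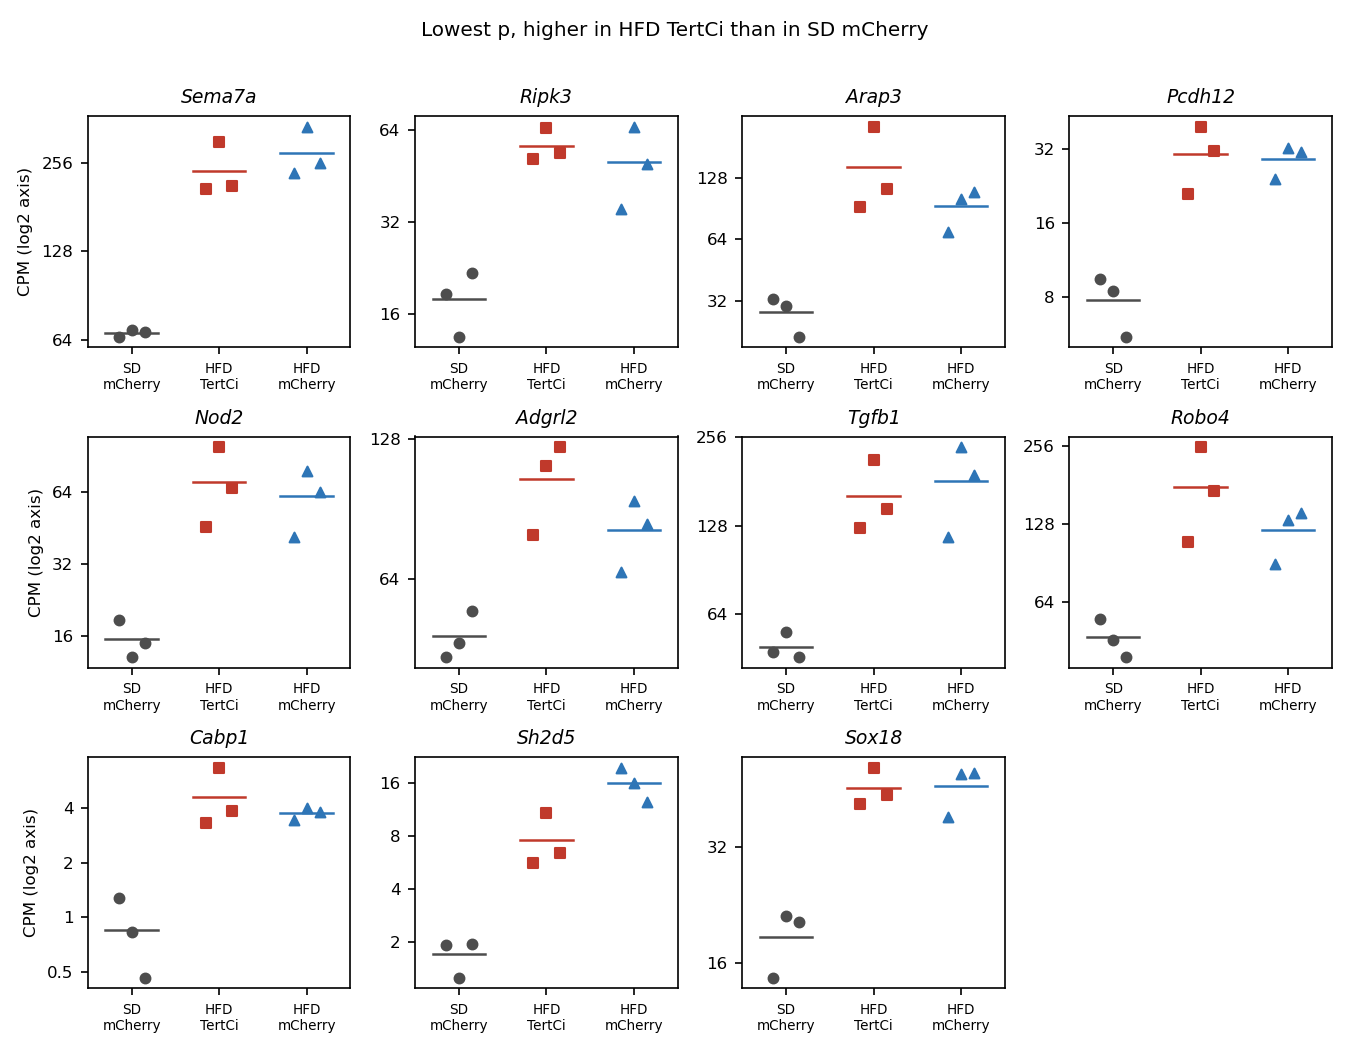
Level in CPM (log2 axis) of the 11 endogenous genes with the smallest p that were higher in HFD TertCi, with 1 point per library and a line at the group mean. The genes were chosen so that the 3 HFD TertCi squares lie above the 3 SD mCherry circles. The HFD mCherry triangles also lie above the SD mCherry circles in each panel. The choice favoured low circles, so this is not separate support.

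The leading lower genes in HFD TertCi divided into those with all 3 SD mCherry libraries high and those high mainly in replicates 1 and 2. Cfd encodes adipsin, the complement factor D protease made by adipocytes (mm10 chromosome 10, 79890853 to 79892655). It was at 19.2, 15.8 and 10.1 CPM in SD mCherry and 1.89, 2.77 and 1.90 CPM in HFD TertCi, a log2 fold change of -2.78 ± 0.471 (SE, edgeR adjusted p = 0.243). DESeq2, the covariate fit and edgeR without SD mCherry replicate 3 each called Cfd. Noxo1, an organiser of an NADPH oxidase, was at 8.40, 11.4 and 7.70 CPM against 3.42, 2.12 and 2.76 CPM. A930015D03Rik was at 8.25, 6.40 and 7.99 CPM against 2.75, 3.35 and 2.96 CPM, while HFD mCherry stood at 10.1, 9.20 and 8.18 CPM. Both counts are uncertain because the use of strand is not stated: 70.4% of the exon bases of Noxo1 lie in exons of Tbl3 on the opposite strand, and 90.3% of those of A930015D03Rik in exons of H2-T22. Tbl3 was at 19.0 to 26.1 CPM in SD mCherry and 16.4 to 23.1 CPM in HFD TertCi, whereas H2-T22 was higher in HFD TertCi, at 99.5 to 108 CPM against 59.6 to 80.7 CPM.

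For the other 9 lower genes SD mCherry replicate 3 was the lowest of its group in every case. Ccl28, a mucosal chemokine made by epithelia, was at 68.4, 94.3 and 8.17 CPM in SD mCherry and 3.16, 1.22 and 1.95 CPM in HFD TertCi. Sord, sorbitol dehydrogenase, was at 89.5, 141 and 41.9 CPM against 30, 20.5 and 28.2 CPM. Dnah11, a heavy chain of axonemal dynein, was at 43.2, 44.7 and 5.27 CPM against 2.40, 1.48 and 3.51 CPM. For Ccl28 and Dnah11 most of the difference lay in SD mCherry replicates 1 and 2. Prr18 was at 9.57, 10.7 and 0.811 CPM in SD mCherry, and had only 4, 1 and 1 counts in HFD TertCi. Proz, Ttc26, Nat6, Azin2 and Cadm1 completed the group, with log2 fold changes from -3.15 to -1.59. DESeq2 called all 12 lower genes, the covariate fit 9 and edgeR without SD mCherry replicate 3 called 11.

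**Figure D2:**
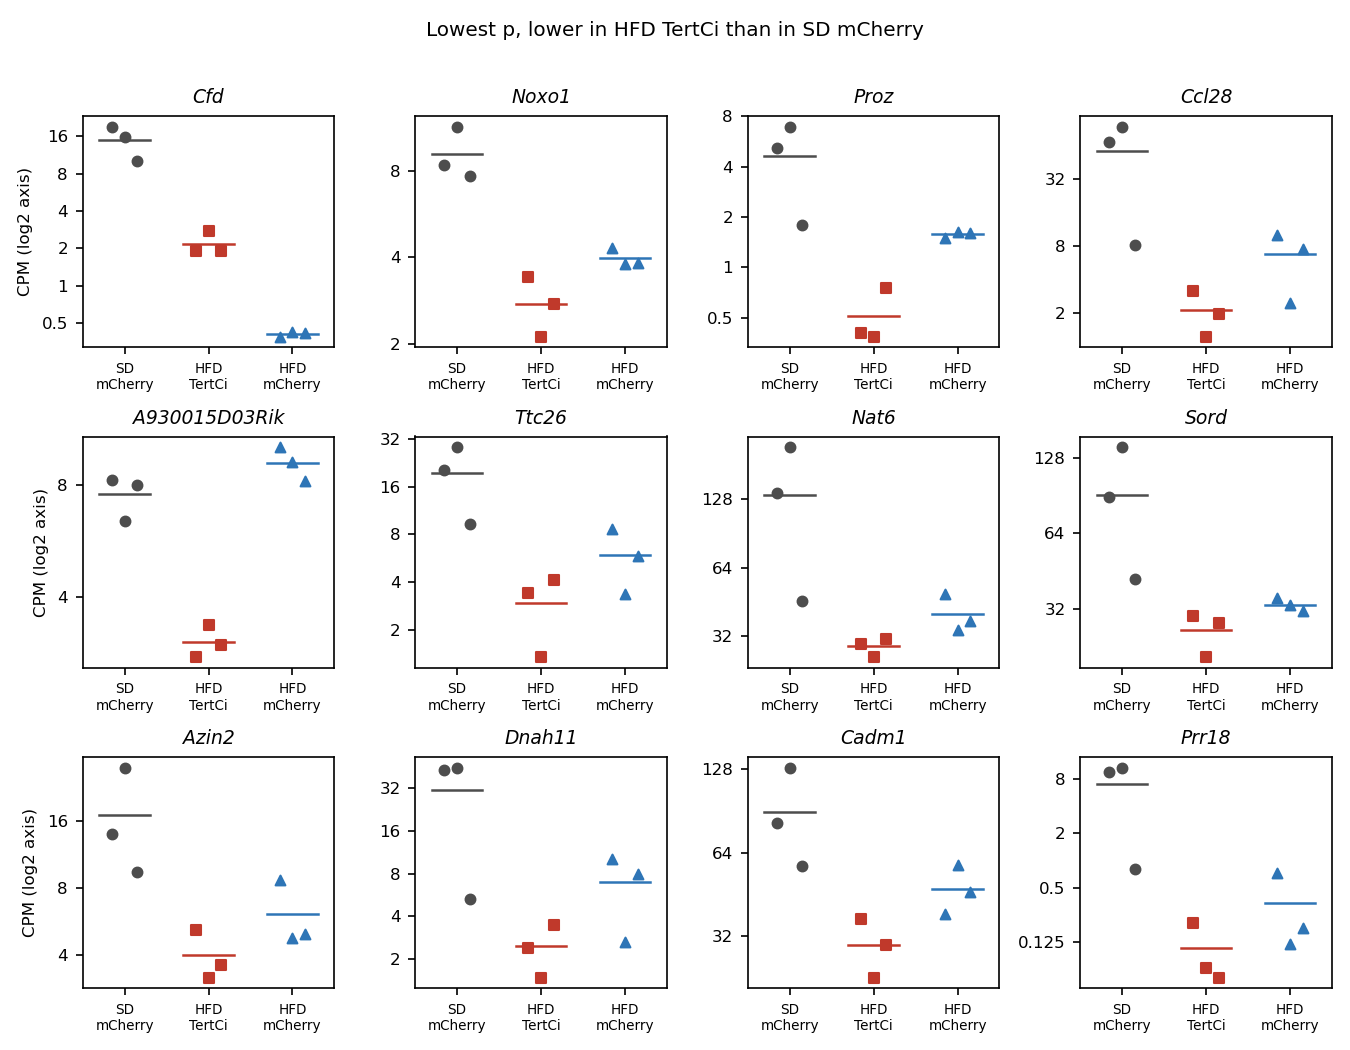
Level in CPM (log2 axis) of the 12 genes with the smallest p that were lower in HFD TertCi, with 1 point per library in replicate order and a line at the group mean. For Ccl28, Dnah11 and Prr18 the third SD mCherry circle sits far below the other two, at 8.17, 5.27 and 0.811 CPM.

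Dnah11 and Ttc26 belong to the machinery of cilia, and motile cilia are borne by specialised epithelia. A list of 42 motile cilia genes, chosen after the values were seen and therefore not tested as a list, showed how these transcripts lay over the libraries. Of the 39 members with enough counts, 38 had a negative log2 fold change in HFD TertCi, with a median of -2.61, while the median of all genes tested was -0.0809. The summed level was 1230 and 1620 CPM in SD mCherry replicates 1 and 2, 225 CPM in replicate 3, and 251, 426 and 273 CPM in HFD TertCi. Much of the sum in the low libraries came from 1 member, Tppp3, at 65.3 CPM in SD mCherry replicate 3 and 103, 327 and 157 CPM in HFD TertCi. Without Tppp3 the sum was 1040, 1280 and 160 CPM in SD mCherry and 148, 99.2 and 116 CPM in HFD TertCi, so that replicate 3 lay just above the HFD TertCi libraries. Tppp3 was left out after the values were seen, so this order is not support. Foxj1, the master transcription factor of motile ciliogenesis, was at 218, 240 and 8.75 CPM in SD mCherry and 6.38, 1.93 and 2.91 CPM in HFD TertCi. Of the 39 members, 16 were lower without overlap between the groups and 0 were higher, beside 10.1% of all genes lower without overlap. SD mCherry replicate 2, with Crisp1 at 0.242 CPM, had the highest summed level of these cilia genes among the 6 libraries, with Tppp3 or without it. Their part in the lower genes above was not tested.

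**Figure D3:**
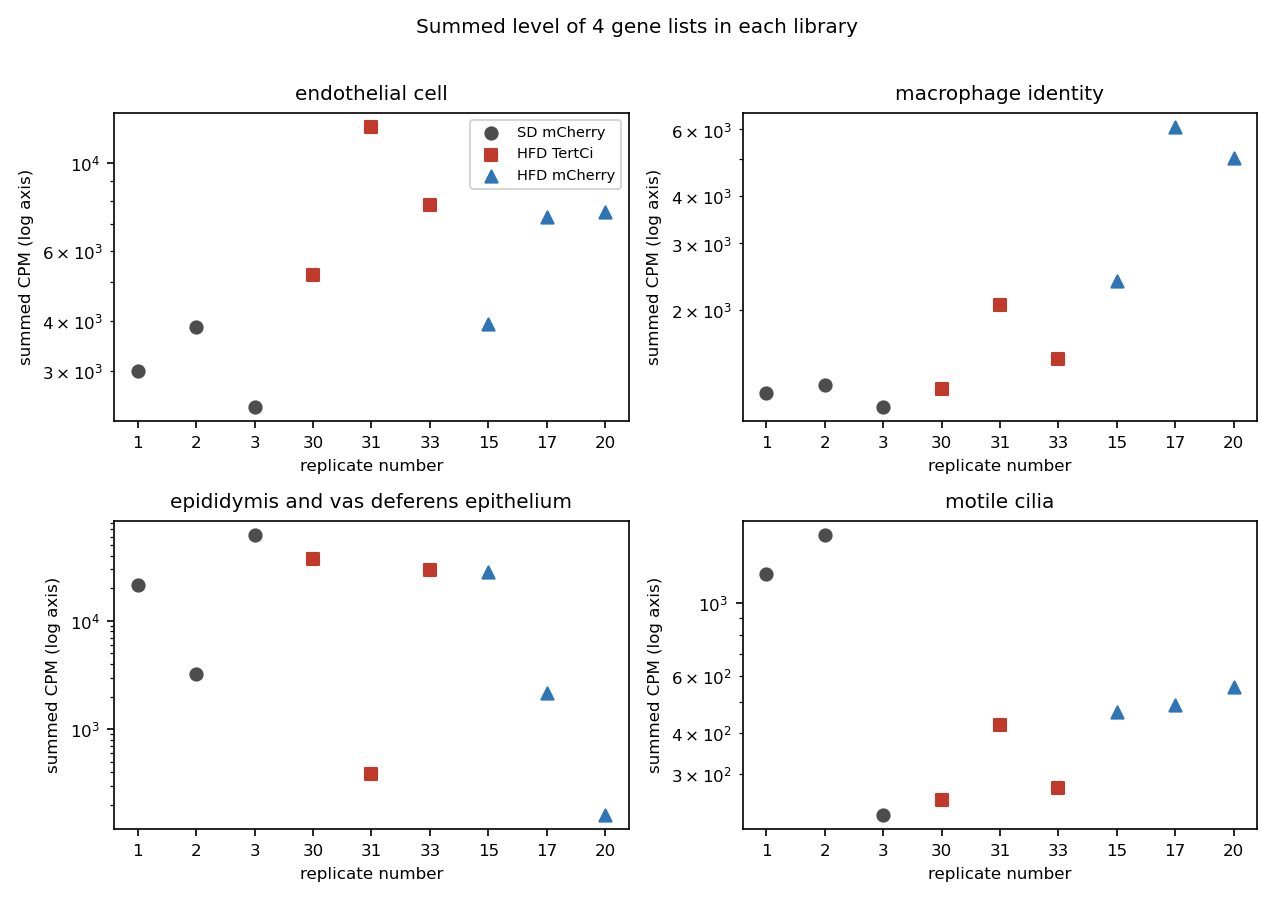
Summed CPM (log axis) of 4 gene lists in each library of the 3 groups, by replicate number. Endothelial transcripts are above every SD mCherry library in all HFD TertCi libraries, macrophage transcripts are highest in HFD mCherry, and epididymis and cilia transcripts are spread within groups.

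Endothelial genes were higher in HFD TertCi for nearly the whole list. In this bulk material, more or fewer cells of a type and more or less RNA per cell cannot be told apart. Of 23 endothelial genes, which include Robo4 and Sox18, 21 were higher and 0 lower at an unadjusted p under 0.05. Over all genes these shares were 6.77% and 7.92%, and the list median was 1.5. Without overlap between the groups 18 of the 23 were higher, beside 10.3% of all genes. None of the 23 passed over all genes in edgeR. Their summed level was 3000, 3860 and 2430 CPM in SD mCherry and 5210, 12300 and 7820 CPM in HFD TertCi. Cldn5, the tight junction claudin of endothelium, was at 242, 268 and 140 CPM against 936, 1630 and 852 CPM (log2 fold change 2.40 ± 0.511, SE). Cdh5, or VE-cadherin, was at 190, 180 and 132 CPM against 357, 694 and 616 CPM. Gpihbp1, which anchors lipoprotein lipase to capillary endothelium, was at 43.5, 49.5 and 35.6 CPM against 175, 269 and 137 CPM. Kdr, the main VEGF receptor, had a log2 fold change of 0.38 (unadjusted p = 0.261), and Aqp1 one of 0.95 (unadjusted p = 0.0622). DESeq2 called 14 of the 23 and the covariate fit 12, all higher, beside 1.51% and 1.22% of all genes. By contrast, edgeR without SD mCherry replicate 3 called 0. Without HFD TertCi replicate 31 the count at an unadjusted p under 0.05 was 15 with a median of 1.06, beside 2.55% of all genes, and without both libraries under 1 CPM of Crisp1 it was 14 with a median of 1.19, beside 1.89%. In HFD mCherry 14 were higher and 0 lower than in SD mCherry, with a median of 1.05, beside 14.1% of all genes higher.

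Ligands and receptors that act on vessels were also higher by count. Of 20 genes of VEGF, angiopoietin and Notch signalling, 10 were higher and 0 lower at an unadjusted p under 0.05, with a median of 0.88. Over all genes 6.77% were higher. Dll4, the Notch ligand of tip and arterial endothelial cells, was at 39.1, 29.4 and 31.1 CPM in SD mCherry and 80.2, 124 and 90.0 CPM in HFD TertCi. Dll1, another Notch ligand, was at 28.2 to 38.2 CPM against 63.4 to 141 CPM, and the receptor Notch4 at 11.8 to 18.7 CPM against 30.9 to 52.3 CPM. Angptl4, a secreted inhibitor of lipoprotein lipase, was at 94.7, 88.6 and 53.9 CPM against 271, 287 and 320 CPM, and at 358, 673 and 677 CPM in HFD mCherry. DESeq2 called these 4 genes, and the covariate fit called 5 of the list. Without HFD TertCi replicate 31 the count of higher genes was 4, beside 2.55% of all genes. Pericyte and smooth muscle genes, 15 in all, gave 2 higher and 0 lower with a median of -0.05, a sign that turned with several alternatives. Their median in HFD mCherry was -1.45. The summed level was 8960, 3340 and 27200 CPM in SD mCherry and 16900, 4700 and 14800 CPM in HFD TertCi. In HFD mCherry it was 3180, 3860 and 2040 CPM. Within each of these groups the library under 1 CPM of Crisp1 had the lowest sum. The part of this spread in the medians was not tested.

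Interferon-stimulated genes are switched on when STAT and IRF factors bind a short element in their promoters. Of 20 tested, 12 were higher and 0 lower at an unadjusted p under 0.05, with a median of 1.11, beside 6.77% of all genes higher. Without overlap 14 were higher, beside 10.3% of all genes. In HFD mCherry the counts at that unadjusted p were 10 and 0, with a median of 0.87, beside 14.1% of all genes higher. The element was searched as GAAA followed after 2 bases of any kind by a second GAAA, on both strands, in the 250 bases before each RefSeq start (GRCm38.p6, the sequence of mm10). It was found in 8 of the 14 list genes with a window (57.1%) and in 402 of 12217 genes tested (3.29%). A match describes the letters only. The window of Oasl2, the list member of smallest p, held 0 matches, and Oas2 was not among the 8 genes with a match. The upstream windows of Rsad2 and Bst2, the list members of smallest p that hold a match, are shown 5′ to 3′ on the gene's strand with the match in capitals. That of Rsad2 is on the minus strand at chr12:26456453-26456702 and that of Bst2 on the minus strand at chr8:71537473-71537722, where 2 overlapping matches merge.
Rsad2: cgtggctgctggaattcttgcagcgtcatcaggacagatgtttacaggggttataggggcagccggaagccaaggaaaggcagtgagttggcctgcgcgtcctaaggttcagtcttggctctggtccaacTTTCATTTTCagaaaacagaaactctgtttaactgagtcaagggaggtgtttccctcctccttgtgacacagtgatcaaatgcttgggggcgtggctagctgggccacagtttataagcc
Bst2: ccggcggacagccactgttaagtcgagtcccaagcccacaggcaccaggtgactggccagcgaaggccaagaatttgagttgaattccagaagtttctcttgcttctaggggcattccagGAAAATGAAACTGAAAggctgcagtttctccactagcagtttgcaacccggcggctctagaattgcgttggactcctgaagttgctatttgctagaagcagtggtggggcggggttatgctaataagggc

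The match in Rsad2 reads on the opposite strand and begins 120 bases before the start, and those in Bst2 begin 130 and 124 bases before it. Rsad2, or viperin, an antiviral enzyme, was at 53.1, 35.6 and 39.2 CPM in SD mCherry and 119, 192 and 164 CPM in HFD TertCi (log2 fold change 1.89 ± 0.522, SE, edgeR adjusted p = 0.243). It was at 165, 481 and 203 CPM in HFD mCherry. Bst2, or tetherin, which holds budding virions at the cell surface, was at 59.6, 80.3 and 84.5 CPM in SD mCherry and 177, 273 and 156 CPM in HFD TertCi. HFD mCherry, at 72.3, 125 and 77.8 CPM, overlapped SD mCherry for Bst2 and not for Rsad2. The log2 difference of Bst2 between HFD TertCi and HFD mCherry was 1.14 ± 0.356 (SE, edgeR adjusted p = 0.226). Oasl2, of the oligoadenylate synthetase family, was at 19.9, 17.6 and 13.6 CPM against 42.4, 52.9 and 38.8 CPM. Oas2 of the same family was at 4.38, 3.64 and 1.56 CPM against 11, 11.7 and 10.5 CPM. DESeq2 called 5 list members, namely Bst2, Ifit1, Oas2, Oasl2 and Rsad2, and the covariate fit called Oasl2. Without both libraries under 1 CPM of Crisp1, 7 of 20 were higher, with a median of 0.93, beside 1.89% of all genes. The list was not uniform: Ifit3 had a log2 fold change of 0.30 ± 0.561 (SE) and Irf7, a regulator of type I interferon, one of 0.33 ± 0.302 (SE), and both overlapped between the groups.

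Chemokines and cytokines draw leukocytes into expanding fat. Of 27 genes of this list, 10 were higher and 0 lower at an unadjusted p under 0.05, with a median of 0.99, against 22 and 0 with a median of 1.56 in HFD mCherry. Over all genes the shares higher were 6.77% in HFD TertCi and 14.1% in HFD mCherry. Cxcl1, which recruits neutrophils, was at 665, 1150 and 1170 CPM in SD mCherry and 1880, 5540 and 3030 CPM in HFD TertCi. Its upstream window (plus strand, chr5:90890995-90891244) holds 1 match to a κB-type motif, searched on both strands as GGGA, 1 base of any kind and then TTTCC, which was found in 3 of 18 list genes with a window and in 63 of 12217 genes tested (0.516%). The window is shown with the match in capitals.
Cxcl1: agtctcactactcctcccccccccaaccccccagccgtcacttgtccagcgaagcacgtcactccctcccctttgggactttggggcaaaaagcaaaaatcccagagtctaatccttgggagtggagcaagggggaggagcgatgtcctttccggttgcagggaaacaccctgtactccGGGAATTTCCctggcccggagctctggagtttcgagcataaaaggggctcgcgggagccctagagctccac

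Nfkb1, the precursor of the p50 subunit that binds such motifs, was at 149, 188 and 201 CPM in SD mCherry and 353, 703 and 394 CPM in HFD TertCi. Ccl5, a T cell and monocyte chemokine, was at 14.4, 15.7 and 13.5 CPM against 47.4, 62.6 and 54.2 CPM. Ccl7, a monocyte chemokine, was at 222, 478 and 336 CPM against 698, 1620 and 812 CPM. None of these ranges overlapped. The receptor Ccr2 had a log2 fold change of -0.07, and the inflammasome sensor Nlrp3 one of -0.51. The covariate fit called 4 of the list and DESeq2 called 2. Without HFD TertCi replicate 31 the count of higher genes was 3, in a fit where the share over all genes was 2.55%.

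Macrophage identity genes were mostly within their spread in HFD TertCi and higher in HFD mCherry by count. Of 18 macrophage identity genes, 0 were higher and 0 lower in HFD TertCi at an unadjusted p under 0.05, with a median of 0.42, whereas HFD mCherry had 15 higher and 0 lower with a median of 2.17. Over all genes 6.77% were higher in HFD TertCi and 14.1% in HFD mCherry at that p. In HFD TertCi against HFD mCherry directly, 13 were lower and 0 higher at that p, with a median of -1.59. The share of lower genes over all genes was 8.92%, and edgeR called 0 of the 18. The summed level was 1210, 1270 and 1110 CPM in SD mCherry, 1240, 2070 and 1490 CPM in HFD TertCi, and 2390, 6090 and 5050 CPM in HFD mCherry. HFD TertCi replicate 30 lay within the SD mCherry range. Msr1, a scavenger receptor, was at 6.92, 7.86 and 7.53 CPM in SD mCherry, 7.80, 26.9 and 12.6 CPM in HFD TertCi and 28.1, 89.5 and 73.0 CPM in HFD mCherry. Spi1, or PU.1, the lineage transcription factor, was at 20.6, 28.8 and 20.4 CPM, 30, 64.8 and 40.2 CPM, and 65.1, 182 and 153 CPM. Fcer1g, a signalling adaptor of Fc receptors, came closest to the unadjusted threshold in HFD TertCi (log2 fold change 1.10 ± 0.499, SE, unadjusted p = 0.0502). DESeq2, the covariate fit and edgeR without SD mCherry replicate 3 each called 0 of these 18 genes in HFD TertCi.

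Genes of lipid-associated macrophages, the TREM2-dependent state around dying adipocytes, were mixed. Of 18, 4 were higher and 2 lower in HFD TertCi with a median of 0.72, against 15 and 0 with a median of 2.87 in HFD mCherry. In HFD TertCi against HFD mCherry, 14 were lower and 0 higher at an unadjusted p under 0.05, with a median of -1.94. Cd36, a fatty acid translocase also made by endothelium and adipocytes, was at 215, 192 and 64.6 CPM in SD mCherry and 519, 816 and 690 CPM in HFD TertCi. The lipid chaperone Fabp5 was at 7.69, 14.2 and 8.17 CPM against 24.6, 35.7 and 20.3 CPM. Spp1, or osteopontin, was lower, at 12.4, 52.0 and 258 CPM against 9.69, 14.9 and 6.67 CPM, with SD mCherry replicate 3 far above the others and overlap between the groups. Apoe, an apolipoprotein, was at 2140, 2700 and 2750 CPM against 1910, 1630 and 1530 CPM. Without HFD TertCi replicate 31 the list median was -0.03. Lysosomal genes gave 1 higher of 24 in HFD TertCi and 16 in HFD mCherry, complement genes 0 higher and 2 lower of 18 against 13 and 1, and class II presentation genes 0 and 1 of 12 against 5 and 0. Genes of resident perivascular macrophages gave 1 higher of 13 in HFD TertCi and 6 in HFD mCherry, with medians of 0.40 and 1.495. In HFD TertCi against HFD mCherry, lysosomal genes gave 0 higher and 10 lower, and complement genes 1 and 10. Class II genes gave 0 and 2 there, and perivascular genes 0 and 2.

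Matrix genes had positive medians in HFD TertCi that were smaller than those in HFD mCherry. At an unadjusted p under 0.05, 6.77% of all genes were higher in HFD TertCi and 14.1% in HFD mCherry. Of 17 collagen genes, 2 were higher and 0 lower with a median of 0.82, against 16 and 0 with a median of 2.58. Both were basement membrane chains: Col4a2 was at 267, 247 and 171 CPM in SD mCherry and 467, 710 and 781 CPM in HFD TertCi, and Col4a1 at 352, 304 and 299 CPM against 625, 869 and 1030 CPM. The fibrillar Col3a1 was at 651, 732 and 245 CPM against 836, 1930 and 1410 CPM (unadjusted p = 0.0685), and at 2830, 8790 and 8980 CPM in HFD mCherry. Matrix glycoproteins and crosslinkers gave 7 higher and 0 lower of 22 with a median of 0.76, against 20 and 0 with a median of 2.21. Their count of higher genes in HFD TertCi was 4 without SD mCherry replicate 3 and 4 without HFD TertCi replicate 31, the median then being 0.54 and 0.49. The shares of all genes higher in those fits were 7.37% and 2.55%. The collagen median was 0.49 without SD mCherry replicate 3. In HFD TertCi against HFD mCherry, collagen genes gave 0 higher and 14 lower at an unadjusted p under 0.05, with a median of -1.75. Glycoproteins and crosslinkers gave 0 and 13 there, with a median of -1.23. Over all genes 8.92% were lower in that comparison. Tnc, or tenascin C, was at 42.0, 38.6 and 43.7 CPM in SD mCherry and 98.9, 272 and 152 CPM in HFD TertCi (log2 fold change 2.07 ± 0.471, SE). DESeq2 called Tnc alone of this list, and the covariate fit called 5. Among 19 proteases and inhibitors 3 were higher and 0 lower. The stromelysin Mmp3 was at 7.28, 4.36 and 5.73 CPM against 12.8, 51.4 and 25.8 CPM, and the metalloproteinase inhibitor Timp1 at 20.5, 35.8 and 31.6 CPM against 91.5, 202 and 80.6 CPM. TGF-beta and activin signalling gave 3 higher and 0 lower of 22 with a median of 0.22, Tgfb1 and Inhbb being among the genes given elsewhere.

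**Figure D4:**
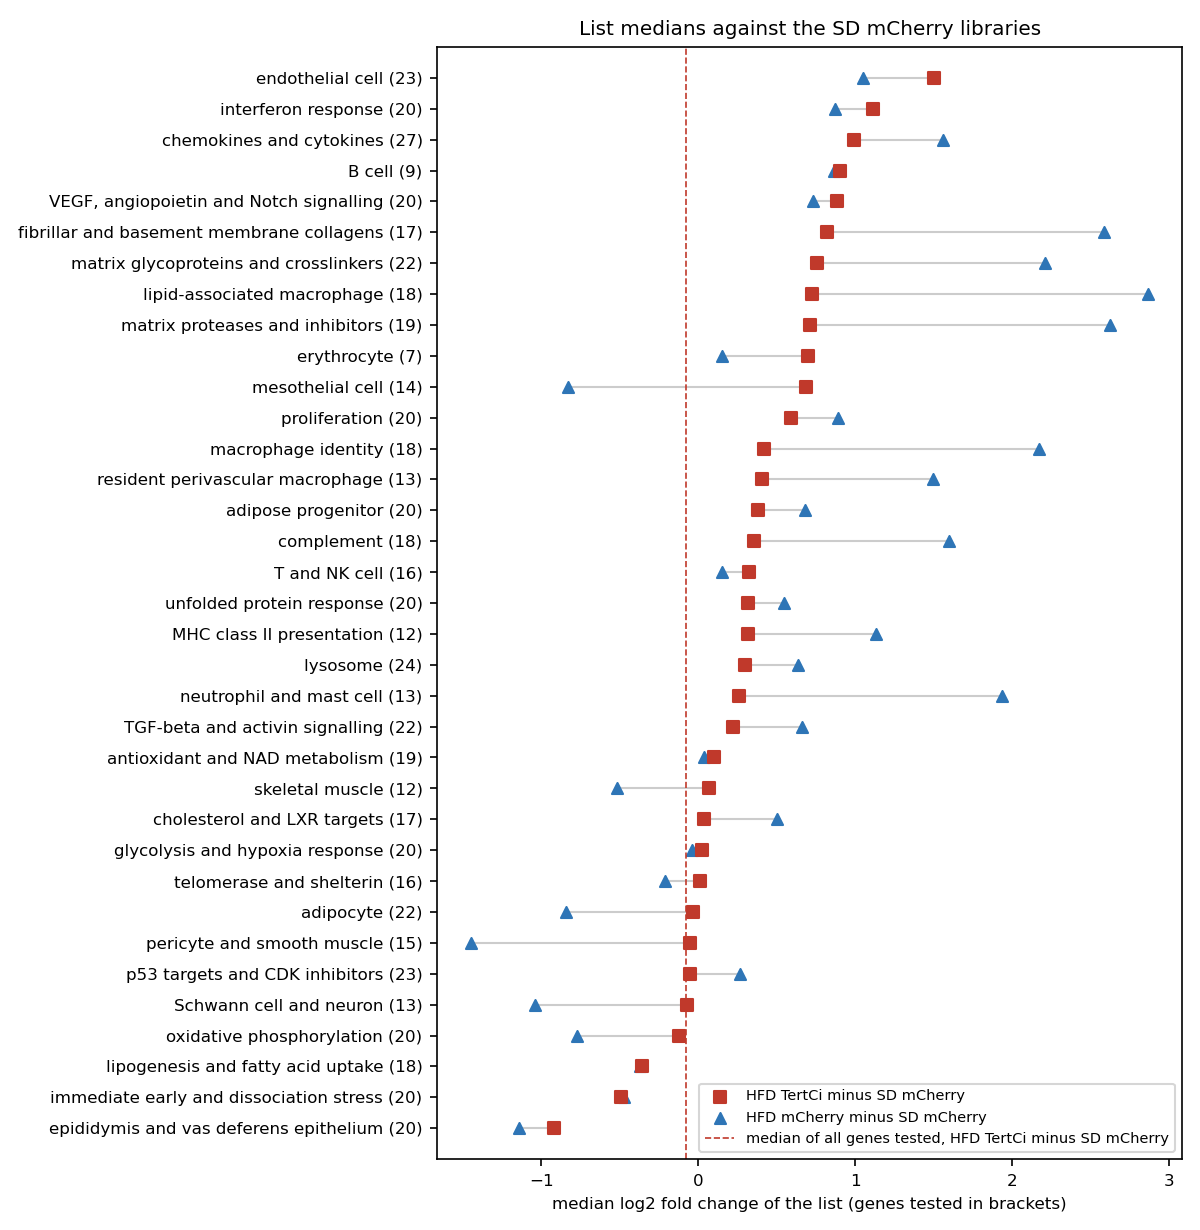
Median log2 fold change of each of 35 gene lists from SD mCherry, for HFD TertCi (squares) and HFD mCherry (triangles), with the number of genes tested in brackets; both are measured from the same SD mCherry libraries, and the dashed line is the median of all genes tested, -0.0809, for HFD TertCi. Endothelial genes have the rightmost square at 1.5, and the macrophage identity square is at 0.42 with its triangle at 2.17.

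Progenitor, adipocyte and lipid genes were mixed. At an unadjusted p under 0.05, 6.77% of all genes were higher in HFD TertCi and 7.92% lower. Of 20 progenitor genes, 2 were higher and 2 lower with a median of 0.38. Icam1, an adhesion molecule of committed preadipocytes that endothelium also makes, was at 664, 891 and 950 CPM in SD mCherry and 1490, 4510 and 2850 CPM in HFD TertCi. Dlk1, or preadipocyte factor 1, was at 12.2, 5.29 and 5.50 CPM against 3.62, 1.87 and 4.01 CPM. Of 22 adipocyte genes, 3 were higher and 4 lower. Fabp4, a fatty acid carrier of adipocytes and capillary endothelium, was at 335, 446 and 207 CPM against 1840, 3440 and 1670 CPM (log2 fold change 2.81 ± 0.699, SE). Lep, or leptin, was at 1.78, 1.55 and 1.27 CPM against 2.40, 12.1 and 4.81 CPM. Pck1, which supplies glycerol for triglyceride synthesis, was at 39.3, 64.0 and 1.39 CPM against 2.14, 0.451 and 0.601 CPM and overlapped through SD mCherry replicate 3. Among 18 genes of lipogenesis and fatty acid uptake 4 were higher and 4 lower, the lower ones including the transporter Slc27a1 at 102, 117 and 32.6 CPM against 32.0, 27.4 and 31 CPM. In HFD mCherry Slc27a1 was at 108, 89.0 and 110 CPM. Cholesterol and LXR target genes gave 2 higher and 1 lower of 17, and antioxidant and NAD genes 5 higher and 0 lower of 19.

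Most genes tied to p21 and telomeres did not differ at an unadjusted p under 0.05, where 6.77% of all genes were higher and 7.92% lower. Among 23 p53 targets and CDK inhibitors, 3 were higher and 2 lower with a median of -0.05. With the covariate these counts were 8 and 4, and those over all 16713 genes were 1651 and 1914. Tnfrsf10b, a death receptor, was at 41.7, 46.7 and 35.9 CPM in SD mCherry and 84.4, 157 and 104 CPM in HFD TertCi. The kinase Plk2 was at 109, 89.6 and 107 CPM against 221, 469 and 256 CPM, and both were called by DESeq2 and by the covariate fit. Sesn1, a stress-induced p53 target, was at 31.1, 43.5 and 34.1 CPM against 22.4, 24.5 and 23.6 CPM. Of 16 telomerase and shelterin genes 3 were higher and 0 lower, among them Tert itself. Terf1, which binds telomeric repeats, was at 6.62, 10.2 and 10.1 CPM against 15.4, 14.6 and 12.1 CPM. Gar1, a protein of the telomerase RNA particle, was at 17.8, 24 and 28.3 CPM against 31.9, 67.1 and 29.9 CPM. Of 20 proliferation genes 2 were higher and 0 lower, with Mki67 at 18.3, 12.5 and 10.2 CPM against 21, 45.0 and 35.4 CPM and Mcm3, a subunit of the replicative helicase, at 12.3, 15.5 and 12.6 CPM against 18.9, 39.4 and 25.1 CPM.

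Oxidative phosphorylation genes gave 0 higher and 0 lower of 20 in HFD TertCi, with a median of -0.12, against 0 higher and 13 lower with a median of -0.77 in HFD mCherry. In HFD TertCi against HFD mCherry, 9 were higher and 0 lower at an unadjusted p under 0.05, beside 5.76% of all genes higher. Glycolysis and hypoxia genes gave 3 higher and 3 lower of 20, and the unfolded protein response 3 and 2 of 20. Trib3, a pseudokinase induced by ATF4, was at 5.40, 7.37 and 13.1 CPM in SD mCherry and 24.7, 30.7 and 16.5 CPM in HFD TertCi. Immediate early genes, which cell dissociation induces, gave 0 higher and 4 lower of 20 with a median of -0.49. Fos was at 1450, 1320 and 582 CPM against 657, 575 and 568 CPM, and Atf3 at 1550, 1630 and 493 CPM against 552, 614 and 463 CPM, so that SD mCherry replicate 3 lay with the HFD TertCi libraries. Without that library 8 of the immediate early genes were lower, in a fit where the share of lower genes over all genes was 12.1% rather than 7.92%.

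Markers of other cell types were counted in the same way. Mesothelial genes gave 2 higher and 0 lower of 14 with a median of 0.69, the summed level being 1790 to 5610 CPM in SD mCherry and 2290 to 3280 CPM in HFD TertCi. Msln, or mesothelin, was at 36.8, 74.3 and 15.8 CPM against 77.3, 252 and 117 CPM, and at 24.1 to 36.4 CPM in HFD mCherry. B cell genes gave 1 higher of 9, T and NK cell, neutrophil and mast cell, erythrocyte, and Schwann cell and neuron genes 0 in either direction, and skeletal muscle genes 1 higher of 12. Pax5, the B cell lineage factor, was at 1.02, 1.31 and 1.39 CPM against 4.69, 4.51 and 2.76 CPM. Epididymis genes gave 0 higher and 1 lower of 20; this was Rnase10, at 0.356, 0.242 and 521 CPM against 0.663, 0.837 and 1.00 CPM, a value set by SD mCherry replicate 3 alone. Over the 606 distinct list genes tested, 106 were higher and 25 lower at an unadjusted p under 0.05, beside 6.77% and 7.92% of all genes.

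The genes that rose or fell in HFD mCherry against SD mCherry showed unlike estimates in HFD TertCi. Of the 8 called, 7 are given here with both log2 fold changes from the same SD mCherry libraries. All 7 were chosen by their difference in HFD mCherry. That choice favours large estimates in HFD mCherry, so a smaller estimate in HFD TertCi is not by itself a result. Cfd fell by 5.18 on the log2 scale in HFD mCherry (± 0.537, SE, edgeR adjusted p = 0.0219), to 0.387, 0.421 and 0.418 CPM, and was lower by 2.78 in HFD TertCi, as described above. Sh2d5 rose by 3.22 ± 0.444 (SE, edgeR adjusted p = 0.0446) in HFD mCherry. It was at 1.93, 1.26 and 1.97 CPM in SD mCherry, 5.66, 10.8 and 6.47 CPM in HFD TertCi and 19.7, 16.1 and 12.5 CPM in HFD mCherry, a log2 fold change of 2.14 ± 0.428 in HFD TertCi. Inhbb, the beta B subunit of activins and inhibins, was at 45.9, 43.5 and 48.4 CPM, 101, 121 and 142 CPM, and 230, 313 and 311 CPM. Its log2 fold changes were 1.40 ± 0.336 in HFD TertCi and 2.63 ± 0.350 in HFD mCherry. For these 3 genes the HFD TertCi libraries lay between the HFD mCherry and SD mCherry ranges; the separation of Cfd and Sh2d5 from SD mCherry was part of how they were chosen. The direct differences between the high-fat groups did not pass, with edgeR adjusted p of 0.154 for Cfd, 0.273 for Sh2d5 and 0.197 for Inhbb.

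The other diet genes, chosen in the same way, lay nearer to SD mCherry in HFD TertCi. Tnfaip8l2, or TIPE2, a regulator of immune cell activation, was at 1.17, 1.07 and 1.62 CPM in SD mCherry, 1.84, 3.09 and 3.01 CPM in HFD TertCi and 5.91, 15 and 16.1 CPM in HFD mCherry. Slc7a8, an amino acid transporter, was at 22, 27.9 and 27.3 CPM, 29.0, 38.8 and 32.1 CPM, and 88.5, 108 and 97.7 CPM. Its log2 fold change was 0.37 ± 0.234 in HFD TertCi and 1.93 ± 0.242 in HFD mCherry. That of Tnfaip8l2 was 1.04 in HFD TertCi (edgeR adjusted p = 0.307). For Tnfaip8l2 and Slc7a8, too, the HFD TertCi libraries lay between the HFD mCherry and SD mCherry ranges. Alcam, an adhesion molecule of leukocytes and stromal cells, was at 17.8, 25.7 and 19.8 CPM, 23.6, 27.7 and 19.7 CPM, and 56.9, 71.1 and 73.3 CPM, with overlap between SD mCherry and HFD TertCi. The transcript 4930404N11Rik was at 9.83, 7.71 and 9.44 CPM, 6.68, 11.8 and 8.67 CPM, and 36.2, 58.3 and 59.7 CPM. Its log2 fold change in HFD TertCi was 0.01 ± 0.274, with a sign that changed between alternatives. DESeq2 called Cfd, Sh2d5 and Inhbb in HFD TertCi and none of Tnfaip8l2, Slc7a8, Alcam and 4930404N11Rik.

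**Figure D5:**
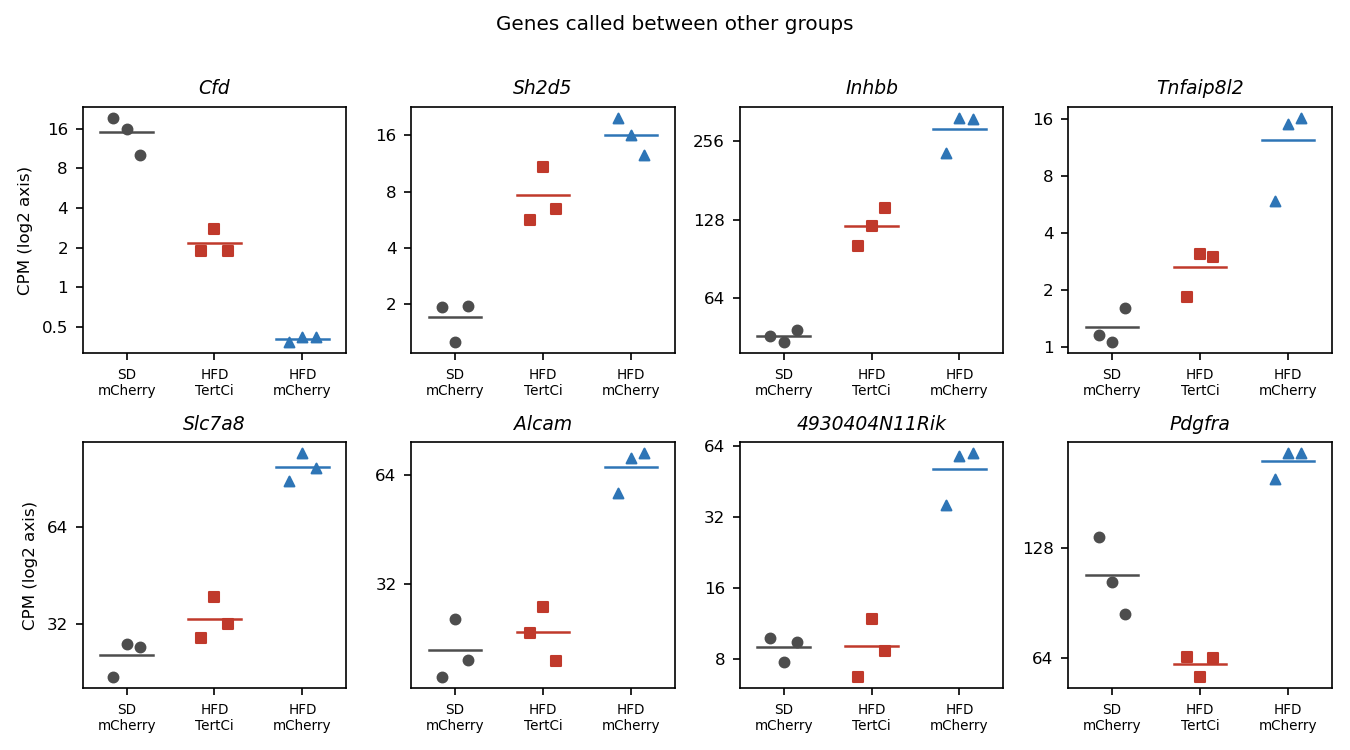
Level in CPM (log2 axis) of 7 genes called between HFD mCherry and SD mCherry and of Pdgfra, with 1 point per library and a line at the group mean. HFD TertCi lies between the other groups for Cfd, Sh2d5 and Inhbb, beside SD mCherry for Alcam and 4930404N11Rik, and below SD mCherry for Pdgfra.

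Between the high-fat groups themselves, edgeR called 2 of 16713 genes (0.0120%), both lower in HFD TertCi. Pdgfra, the PDGF receptor that marks adipose progenitors and fibroblasts, was at 137, 103 and 84.5 CPM in SD mCherry, 64.3, 56.7 and 63.9 CPM in HFD TertCi and 198, 232 and 232 CPM in HFD mCherry. It was lower than SD mCherry in HFD TertCi (log2 fold change -0.81 ± 0.214, SE, edgeR adjusted p = 0.243) and higher in HFD mCherry (1.03 ± 0.215, SE, edgeR adjusted p = 0.0659), and neither difference passed. The difference between the high-fat groups was -1.84 ± 0.220 (SE, edgeR adjusted p = 0.0426). The other gene was 4930404N11Rik, at -2.50 ± 0.288 (SE, edgeR adjusted p = 0.0426). Of its exon bases 67.3% lie in exons of Mfsd12 on the opposite strand, and Mfsd12 was at 2.78 to 5.24 CPM in SD mCherry, 3.99 to 4.79 CPM in HFD TertCi and 15.5 to 33.7 CPM in HFD mCherry, so reads of the pair cannot be told apart. Both calls were lost with any of 10 of the 12 libraries left out.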

How the data were processed

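RNA-seq counts per gene were the authors' deposited values, whole numbers that were not normalized, for 12 libraries of 4 groups with 3 each. Subread, SAMtools, featureCounts 1.6.4 and the build mm10 are named in the submitters' processing notes; annotation and use of strand are not given in the sources used here. The tables list 24422 features. Library totals of 16430330 to 19486965 counts limit precision for genes of few counts.

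Groups followed the sample labels. In R 4.3.3, genes were kept with filterByExpr (16713), scaled by TMM (factors 0.854 to 1.15) and fitted over all 12 libraries with edgeR 4.0.16's robust quasi-likelihood test (common biological coefficient of variation 0.536, 8 residual degrees of freedom). P-values were Benjamini-Hochberg adjusted over all genes tested and called under 0.05. Levels are CPM computed from the counts and TMM sizes; errors are SD of CPM or SE of log2 fold changes. Named were the 12 genes of smallest p in each direction whose groups did not overlap and whose mean reached 1 CPM, list members that were called or among the 4 of smallest p, Tert, mCherry_Tert, Cdkn1a, and genes called in the other comparisons; further list members, such as Kdr, Aqp1, Msr1, Spi1, Ccr2, Nlrp3, Ifit3, Irf7 and Col3a1, were picked after their values were seen. The comparison and its lists were chosen with earlier results of these data known. Alternatives were DESeq2 1.42.0, limma-voom (limma 3.58.1), other scaling and filters, the mean epididymis level as a covariate, and libraries left out. The fit was checked on simulated data. Promoter windows came from RefSeq GRCm38.p6, in which 222 of 225 genes were matched, and exon overlaps from GENCODE M21. Of the genes called in the other comparisons, 1 is not reported here.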

Additional observations from a re-analysis of the deposited data

Results flagged for a closer look

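For 2 genes the difference from SD mCherry was not the same in the high-fat groups, by a direct edgeR test between those groups. The transcript 4930404N11Rik differed by -2.50 on the log2 scale (HFD TertCi minus HFD mCherry, adjusted p = 0.0426), and all 3 HFD mCherry libraries lay above all 3 HFD TertCi libraries. Pdgfra differed by -1.84 (adjusted p = 0.0426), and its estimates from SD mCherry had opposite signs in the high-fat groups. Neither call held when any of 10 of the 12 libraries was left out.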

How the results depend on the processing

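Between HFD TertCi and SD mCherry, 21 of 24 alternatives called 0 genes, limma-voom among them; DESeq2 called 696, edgeR with the epididymis covariate 224 (0 on only the groups compared), and leaving out single libraries gave 0 to 326, the highest without SD mCherry replicate 3. Between HFD mCherry and SD mCherry, where 8 were called, DESeq2 called 1988, limma-voom 0, edgeR on only the groups compared 0, edgeR with RLE size factors 2, the covariate fit 1567, the covariate fit on only those groups 2, the fit without the 4 libraries under 1 CPM of Crisp1 0, and leaving out single libraries 0 to 2082, the highest without HFD mCherry replicate 15. Between the high-fat groups, where 2 were called, DESeq2 called 599, edgeR on only the groups compared 0, edgeR with library size only 1, the covariate fit 440, the covariate fit on only those groups 1423, the fit without the 4 libraries under 1 CPM of Crisp1 0, and leaving out single libraries 0 to 198, the highest without HFD mCherry replicate 15. The cause was not tested. The fits that leave out libraries by Crisp1, and the covariate on only the groups compared, were added after seeing the data. Of 161 named genes, 154 kept their direction in every alternative run. Library size alone moved the median log2 fold change of all genes from -0.081 to -0.175. No paired analysis was possible because no replicate number occurs in more than 1 group. Leaving out a library leaves its group with 2.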

Other observations

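Cytosolic aminoacyl-tRNA synthetases, which charge tRNAs with amino acids, were noticed after the values were seen and so were not tested as a list. Of 18, 10 were higher in HFD TertCi without overlap with SD mCherry and 1 was lower, beside 10.3% and 10.1% of all genes. The median log2 fold change was 0.39, and it was 0.11 in HFD mCherry. Gars, the glycine enzyme, was at 22.2, 22.2 and 35.9 CPM in SD mCherry and 63.1, 84.4 and 62.5 CPM in HFD TertCi. Aars, the alanine enzyme, was at 58.1, 56.2 and 66.6 CPM against 89.2, 104 and 93.0 CPM. Both were called by DESeq2, by the covariate fit and by edgeR without SD mCherry replicate 3, and by edgeR on all libraries neither was. The summed level of the list overlapped between the groups, at 911 to 1830 CPM against 1430 to 1930 CPM. Wars, the tryptophan enzyme, was at 266, 60.6 and 619 CPM against 544, 73.8 and 569 CPM. In each group the library under 1 CPM of Crisp1 had the lowest level of Wars, and the cause was not tested. Without Wars the sums were 964, 850 and 1210 CPM against 1380, 1350 and 1310 CPM, which did not overlap. Leaving out Wars was chosen after the values were seen, so this separation is not support.

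Ren1, the protease renin, picked after its values were seen, was at 1.63, 3.59 and 1.45 CPM in SD mCherry, 4.64, 25.4 and 14.4 CPM in HFD TertCi and 0.552, 1.2 and 1.85 CPM in HFD mCherry. The difference of HFD TertCi did not pass from SD mCherry (edgeR adjusted p = 0.243) or from HFD mCherry (edgeR adjusted p = 0.154). Klrb1c, an NK cell receptor, was at 44.8 CPM in SD mCherry replicate 3 and 174 CPM in HFD mCherry replicate 15, the libraries in which Rnase10 reached 521 and 2410 CPM.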
